A study of Mus musculus with 12 samples.

Results

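Epithelial cells hold together through adherens junctions, in which cadherins on neighbouring cells bind each other and are anchored to actin by catenins, and through tight junctions, in which claudins and occludin seal the space between cells and are tied to the cytoskeleton by zonula occludens scaffolds. Undifferentiated mouse embryonic stem cells (ESCs) grow as compact colonies and are known to express E-cadherin and other epithelial junction proteins. Cell contacts feed into the Hippo pathway, which keeps the coactivator YAP out of the nucleus, and YAP acts on genes through TEAD factors. The genes described here were 9 members of this junctional apparatus, taken by symbol from a list, with no threshold on their values, among 24480 genes in the deposited tables. They were the cadherins Cdh1 and Cdh3, the adhesion molecule Epcam, the claudins Cldn3, Cldn4, Cldn6 and Cldn7, the tight junction protein Ocln and the scaffold Tjp1. All 9 passed the filter on low counts in each comparison. The list was chosen with earlier results of these data known.

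RNA was sequenced from E14Tg2a cells, a feeder-independent mouse ESC line kept in serum with leukemia inhibitory factor, after transient transfection with a lipid reagent. In the knockdown experiment, cells received a mix of siRNAs targeting mYAP (YAP KD) or scrambled siRNAs (CTR KD). For overexpression, cells were given a plasmid encoding mYAP under the CAG promoter, which is active in most cell types (YAP OE), or a control plasmid that the labels describe as encoding GFP and the study's text as an empty vector (CTR OE). Each of the 4 groups had 3 libraries from independent samples of the same line, and the knockdown and overexpression experiments shared no control library. Transfected cells were not sorted, so each library averages over cells that took up different amounts of siRNA or plasmid, and fewer cells expressing a gene cannot be told apart from less RNA per cell.

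Sequencing depth lay between 4.29e+07 and 5.72e+07 expected counts per library, of which the junction genes took between 0.0597% and 0.0753%. Levels are given as CPM, the count relative to the library total scaled to a common depth, after TMM scaling over all 12 libraries. Fold changes are log2 values from edgeR's quasi-likelihood test (two-sided) fitted within each experiment, with SE, and a gene was called when its p-value after Benjamini-Hochberg adjustment over all genes tested was under 0.05. Yap1, the targeted gene, was at 54.9 to 58.5 CPM in YAP KD against 116 to 135 CPM in CTR KD, and at 244 to 277 CPM in YAP OE against 130 to 134 CPM in CTR OE. The ESC markers Pou5f1, Nanog, Sox2, Zfp42, Esrrb, Klf4, Tdgf1 and Dppa5a summed to 5550 to 6060 CPM over all 12 libraries. None of these 8 was called by edgeR in either experiment, or by DESeq2 or limma-voom, with 4 at an unadjusted p under 0.05 in the knockdown and 1 on overexpression. Those 4 were Nanog, Zfp42, Esrrb and Dppa5a, all lower in YAP KD (log2 fold change -0.13, -0.13, -0.16 and -0.13). The other 4 had positive values in the knockdown. On overexpression it was Klf4, lower in YAP OE (-0.11).

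The genes include 2 neighbouring pairs (GRCm38.p6 coordinates). Cdh1 (chr8:106603350-106670247) and Cdh3 (chr8:106510852-106556911) are neighbours separated by 46.4 kb. Cldn3 (chr5:134986214-134987476) and Cldn4 (chr5:134945123-134946934) are separated by 39.3 kb. Cldn6 (chr17:23679348-23682446) and Epcam (chr17:87635979-87651127) share a chromosome but not a neighbourhood. Cldn7 lies at chr11:69964779-69967886, Ocln at chr13:100496504-100552718 and Tjp1 at chr7:65296165-65527850.

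Promoter sequences from RefSeq (GRCm38.p6), spanning 250 bases before to 50 bases after a transcript start, were matched for 7 of the 9 genes, which had 9 promoters among them. Cdh1 and Cdh3 had no promoter in this set, so theirs were not searched. The 9 promoters were searched on both strands for the TEAD core GGAATG (or CATTCC), the AP-1 site TGANTCA, the E-box CACCTG (or CAGGTG) that cadherin repressors such as Zeb2 can bind, and the Grainyhead-like core AACNNGTT. Of all 32851 promoters of this length, 14.7% held the TEAD core, 7.81% the AP-1 site, 20.2% the E-box and 4.20% the Grainyhead-like core. The promoters of Cldn4 (chr5:134946885-134947184, minus strand) and Cldn6 (chr17:23679115-23679414, plus strand) are shown because both genes fell in YAP KD, that of Cldn3 (chr5:134985964-134986263, plus strand) because it neighbours Cldn4, and that of Tjp1 (chr7:65371195-65371494, minus strand) because its level hardly moved. Capitals mark every match to the motifs searched.
Cldn4: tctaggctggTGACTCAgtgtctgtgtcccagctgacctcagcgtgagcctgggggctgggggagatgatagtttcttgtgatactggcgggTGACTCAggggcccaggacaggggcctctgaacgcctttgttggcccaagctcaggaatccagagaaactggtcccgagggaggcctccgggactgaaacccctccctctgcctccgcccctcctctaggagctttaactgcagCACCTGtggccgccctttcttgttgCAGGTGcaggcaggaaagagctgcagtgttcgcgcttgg
Cldn6: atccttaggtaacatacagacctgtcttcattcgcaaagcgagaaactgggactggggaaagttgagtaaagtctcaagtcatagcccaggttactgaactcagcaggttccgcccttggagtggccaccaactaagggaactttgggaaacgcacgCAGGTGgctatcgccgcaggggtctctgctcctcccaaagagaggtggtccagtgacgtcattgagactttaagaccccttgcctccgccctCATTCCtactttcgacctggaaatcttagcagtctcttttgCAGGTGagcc
Cldn3: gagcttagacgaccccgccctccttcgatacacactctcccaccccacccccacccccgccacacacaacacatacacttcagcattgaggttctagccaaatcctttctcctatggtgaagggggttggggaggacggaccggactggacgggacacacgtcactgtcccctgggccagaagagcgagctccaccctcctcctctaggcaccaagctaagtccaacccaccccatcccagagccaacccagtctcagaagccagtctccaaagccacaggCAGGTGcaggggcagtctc
Tjp1: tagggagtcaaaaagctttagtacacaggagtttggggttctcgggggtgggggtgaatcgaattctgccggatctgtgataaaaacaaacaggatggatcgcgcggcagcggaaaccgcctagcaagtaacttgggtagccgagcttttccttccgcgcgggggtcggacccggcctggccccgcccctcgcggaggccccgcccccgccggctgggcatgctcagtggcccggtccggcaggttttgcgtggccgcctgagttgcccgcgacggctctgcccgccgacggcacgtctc
The Cldn4 promoter held 2 AP-1 matches, starting at -240 and -158 from the transcript start, and 2 E-boxes, at -14 and 12. At least 2 AP-1 matches were present in 0.460% of all promoters, and no such share was computed for pairs of E-boxes. In the Cldn6 promoter, a TEAD core match began at -1 and E-boxes at -93 and 41. The Cldn3 promoter held 1 E-box, at 32, and the Tjp1 promoter had no match to any of the motifs in this window. That Tjp1 window lies inside the span of the gene, and sequence at the gene's outer end (chr7:65527850) was not searched. Among the other promoters, a TEAD core match was present only in the first Cldn7 promoter, at -70, and E-boxes in those of Epcam, Ocln and the second Cldn7 promoter. The Epcam E-boxes began at -187 and -19, although the Epcam level overlapped between CTR KD and YAP KD. No Grainyhead-like match was found in the 9 promoters. These matches describe letters in the window and do not show binding.

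To compare genes with each other, levels were divided by effective transcript length. In CTR KD, Epcam (73.0 ± 1.95 CPM per kb, SD, n = 3) and Cldn4 (72.1 ± 5.08 CPM per kb) led, and their libraries overlapped. Cdh1, which encodes E-cadherin, followed at 53.1 ± 1.17 CPM per kb. Cldn6, a claudin typical of early embryonic epithelium, stood at 30.2 ± 1.38 CPM per kb. Tjp1, encoding the scaffold ZO-1, was at 16.9 ± 0.817 CPM per kb and Cdh3, encoding P-cadherin, at 11.1 ± 1.17 CPM per kb. Cldn7 (5.11 ± 0.521 CPM per kb), Cldn3 (3.46 ± 0.736 CPM per kb) and Ocln (1.90 ± 0.0832 CPM per kb) were the lowest. Apart from Epcam and Cldn4, no neighbours in this order overlapped across the CTR KD libraries.

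**Figure D1:**
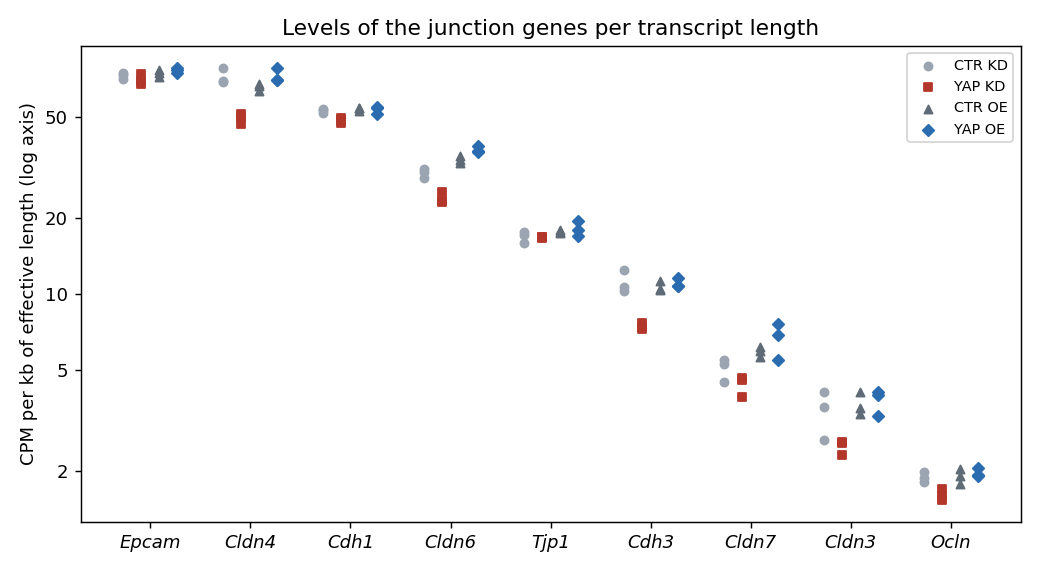
Level of each junction gene in CPM per kb of effective length (log axis), genes ordered by their mean in CTR KD, 1 point per library and 3 libraries per group. Cldn4 sits beside Epcam in CTR KD and beside Cdh1 in YAP KD (49.6 and 48.7 CPM per kb on average), while Epcam stays near 70 in YAP KD (70.2 CPM per kb).

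The order of the means was the same in all 4 groups, but the gaps at its top were not. In YAP KD, Cldn4 averaged 49.6 ± 2.53 CPM per kb and overlapped Cdh1 (48.7 ± 1.11 CPM per kb), whereas Epcam remained apart at 70.2 ± 3.14 CPM per kb. In CTR OE, Epcam (74.6 ± 2.66 CPM per kb) lay above Cldn4 (65.8 ± 2.02 CPM per kb) without overlap. In YAP OE, Epcam (76.7 ± 2.02 CPM per kb) and Cldn4 (72.7 ± 4.51 CPM per kb) overlapped again.

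The knockdown was examined first, to ask whether junction genes depend on YAP. Of the 9 genes, 3 were called and all 3 fell in YAP KD: the cadherin Cdh3 and the claudins Cldn4 and Cldn6. Over all genes, 802 of 14606 tested (5.49%) were called, 406 of them lower (2.78%) and 396 higher (2.71%). All 9 junction genes had a negative log2 fold change, with a median of -0.235 beside 0.0058 over all genes tested. For 6 of them (Cdh1, Cdh3, Cldn3, Cldn4, Cldn6 and Ocln), every YAP KD library lay below every CTR KD library, a separation in either direction that 25.7% of all genes tested showed. As the genes were chosen with earlier results of these data known, these shares do not test the list against all genes.

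**Figure D2:**
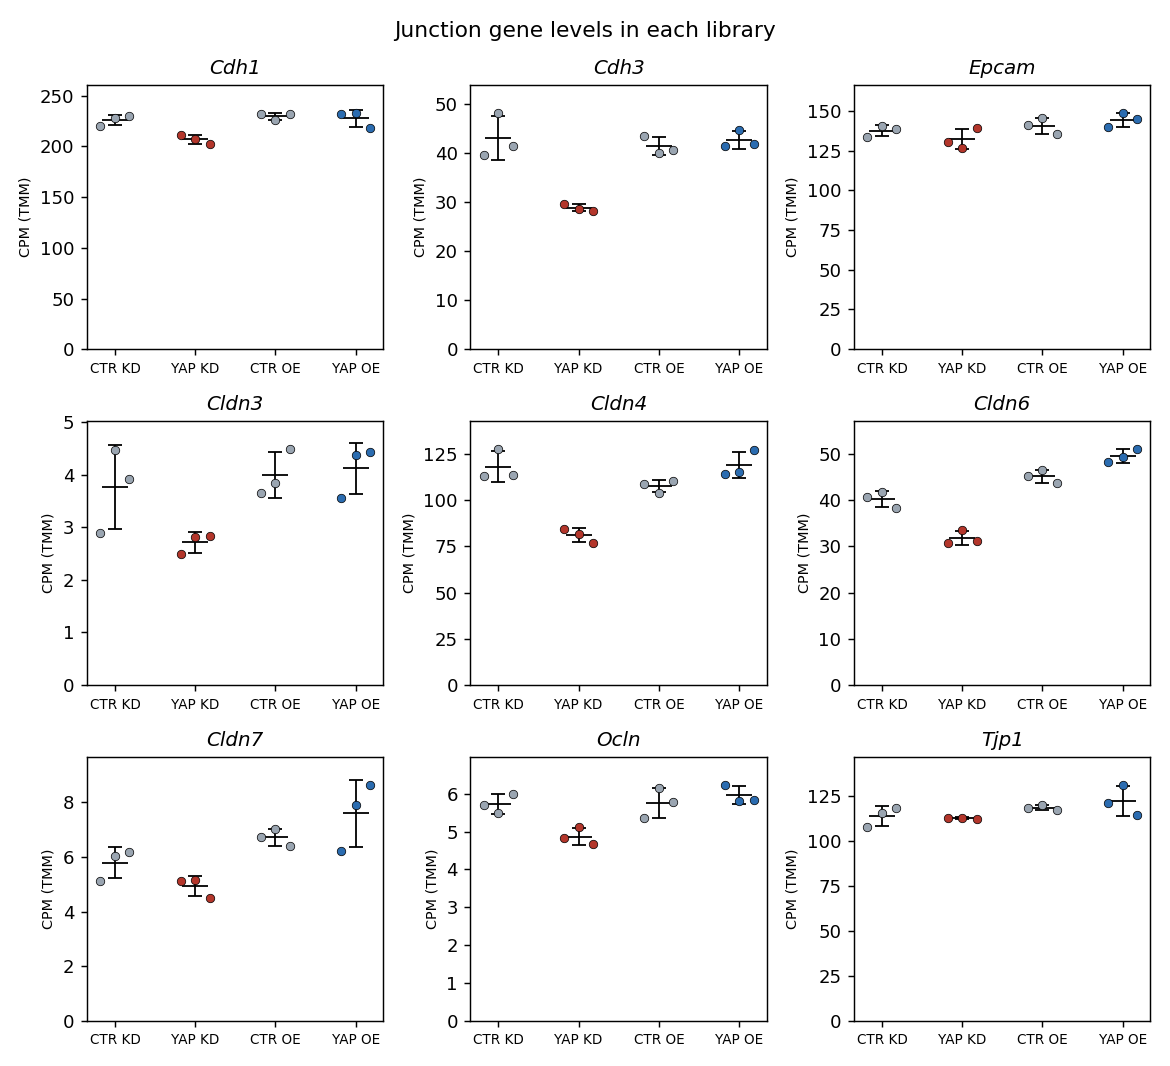
Level of each junction gene in CPM after TMM scaling (each axis starts at 0), 1 point per library, with the mean and SD of the 3 libraries per group. Cldn4 drops from 113 to 128 CPM in CTR KD to 76.9 to 84.1 CPM in YAP KD, while Tjp1 stays between 107 and 118 CPM in both groups.

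Cdh3 encodes P-cadherin, a classical cadherin that forms adherens junctions in many epithelia. It was measured at 39.6, 48.2 and 41.4 CPM in the CTR KD libraries and at 29.7, 28.7 and 28.3 CPM in the YAP KD libraries. The groups did not overlap, and the YAP KD libraries lay close together whereas CTR KD replicate 2 stood above the other control libraries. The log2 fold change was -0.58 ± 0.07 (SE, adjusted p = 0.00204, edgeR), a fall by 32.9%. CTR KD replicate 2 held the highest level of 5 of the 9 genes within its group. Without that library, Cdh3, Cldn4 and Cldn6 remained called, at -0.49, -0.49 and -0.31.

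Cdh1 encodes E-cadherin, the main cadherin of ESC colonies. Its levels were 220.4, 227.7 and 230.2 CPM in CTR KD and 211.6, 207.4 and 202.9 CPM in YAP KD. The groups did not overlap, but the difference was small. Its log2 fold change of -0.12 ± 0.04 did not pass the threshold (adjusted p = 0.107, edgeR), with a 95% confidence interval from -0.21 to -0.04. The count of Cdh3 relative to that of its neighbour Cdh1, which does not depend on library scaling, was 18%, 21.2% and 18% in CTR KD and 14%, 13.8% and 13.9% in YAP KD. P-cadherin mRNA therefore became scarcer relative to E-cadherin mRNA in every YAP KD library.

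Claudins set the permeability of tight junctions, and Cldn4 was the most abundant of them here. It measured 113.1, 127.6 and 113.8 CPM in CTR KD and 84.1, 81.9 and 76.9 CPM in YAP KD. All YAP KD libraries were well below all controls, and the log2 fold change was -0.54 ± 0.06 (adjusted p = 0.000882, edgeR), a fall by 31.4%. Cldn6 measured 40.6, 41.7 and 38.2 CPM in CTR KD and 30.8, 33.6 and 31.1 CPM in YAP KD. It fell by 20.7%, with a log2 fold change of -0.34 ± 0.05 (adjusted p = 0.00681, edgeR). On the log2(TPM + 1) scale, the calls of Cldn6 (-0.32, adjusted p = 0.407) and Cdh3 (-0.48, adjusted p = 0.0889) were lost. The count of Cldn6 relative to Cldn4 was between 32.7% and 35.9% in CTR KD and between 36.6% and 41.0% in YAP KD, without overlap. It was between 39.7% and 44.8% in CTR OE and between 40.1% and 42.8% in YAP OE, so CTR KD was the lowest group. Whether Cldn4 and Cldn6 changed unequally was not tested.

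Cldn3 and Cldn7, other claudins of simple epithelia, were near the low end of the range and less precisely measured. Cldn3 was at 2.90, 4.47 and 3.92 CPM in CTR KD and at 2.49, 2.82 and 2.84 CPM in YAP KD. Its log2 fold change (-0.47 ± 0.15) was close in size to that of its neighbour Cldn4 but did not pass the threshold (adjusted p = 0.117, edgeR). CTR KD replicate 1 decided this: without it the change was -0.63 and was called (adjusted p = 0.0178). Relative to Cldn4, the Cldn3 count was between 2.56% and 3.50% in CTR KD and between 2.96% and 3.69% in YAP KD, with overlap. Cldn7 was at 5.14, 6.04 and 6.19 CPM in CTR KD and at 5.13, 5.17 and 4.50 CPM in YAP KD, which overlapped (-0.24 ± 0.10, adjusted p = 0.215, edgeR).

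The 4 claudins made up most of the claudin RNA. Per unit of effective length, summed over 32 claudin genes, Cldn4 took 58.3% ± 0.940 (SD, n = 3) of the total in CTR KD and 53.3% ± 1.28 in YAP KD, and Cldn6 24.4% ± 0.924 and 25.8% ± 0.977. In the overexpression experiment, Cldn4 took 53.8% ± 1.48 in CTR OE and 54.4% ± 0.770 in YAP OE. The Cldn4 share in YAP KD was therefore near that of the other control group, and CTR KD stood above all others. The summed claudin level was 120 to 131 CPM per kb in CTR KD and 89.3 to 95.4 CPM per kb in YAP KD. Cldn12, a claudin outside the 9 genes, took 7.20% ± 0.460 in CTR KD and 9.59% ± 0.251 in YAP KD, while its own level stayed at 31.7 to 32.6 CPM and 31.9 to 32.6 CPM. Of 21 further claudins read as a partner list, 7 passed the filter, and edgeR, DESeq2 and limma-voom called none of them in either experiment, with 0 at an unadjusted p under 0.05.

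Ocln and Tjp1 represent the other tight junction components. Ocln, a transmembrane protein of the junctional strands, was at 5.71, 5.49 and 6.0 CPM in CTR KD and at 4.82, 5.12 and 4.67 CPM in YAP KD. The groups did not overlap, but the log2 fold change of -0.23 ± 0.08 did not pass the threshold (adjusted p = 0.135, edgeR). Tjp1 was at 107.4, 115.5 and 118.0 CPM in CTR KD and at 112.8, 112.9 and 112.1 CPM in YAP KD. Its change was -0.01 ± 0.04 (adjusted p = 0.930, edgeR), and the 95% confidence interval from -0.11 to 0.09 excludes a fall of the size seen for Cldn4.

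Epcam, an adhesion molecule that is also known to bind and stabilize claudins, was at 133.6, 140.7 and 138.7 CPM in CTR KD and at 130.6, 126.8 and 139.3 CPM in YAP KD. The groups overlapped (-0.06 ± 0.05, adjusted p = 0.578, edgeR). The interval from -0.16 to 0.05 again lies above the falls of Cdh3, Cldn4 and Cldn6.

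The overexpression experiment asked the reverse question. None of the 9 genes was called by edgeR, DESeq2 or limma-voom, where edgeR called 316 of 14804 genes (2.13%), 246 higher (1.66%) and 70 lower (0.473%). The log2 fold change was positive for 8 genes and negative for Cdh1, with a median of 0.045 beside -0.0025 over all genes tested. Only Cldn4 and Cldn6 had an unadjusted p under 0.05, as did 13.1% of all genes tested. They were also the only members whose YAP OE libraries all lay above the controls, where 18.2% of all genes were separated in either direction.

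Cldn4 was at 108.6, 103.9 and 110.3 CPM in CTR OE and at 114.3, 115.3 and 127.2 CPM in YAP OE. Every YAP OE library was higher, by 10.6% on average (0.15 ± 0.05, unadjusted p = 0.00625, adjusted p = 0.141, edgeR). Cldn6 was at 45.2, 46.6 and 43.8 CPM in CTR OE and at 48.1, 49.4 and 51.0 CPM in YAP OE. Again all YAP OE libraries were higher, by 9.70% (0.13 ± 0.04, unadjusted p = 0.00591, adjusted p = 0.136, edgeR). Cdh3 was at 43.5, 40.1 and 40.6 CPM in CTR OE and at 41.5, 44.7 and 41.8 CPM in YAP OE. These overlapped (0.04 ± 0.05, adjusted p = 0.758, edgeR), and the 95% confidence interval reached from -0.05 to 0.14.

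The other genes overlapped between CTR OE and YAP OE. Cdh1 was at 226 to 232 CPM in CTR OE and 218 to 233 CPM in YAP OE. Epcam was at 135 to 145 CPM and 140 to 149 CPM, and Tjp1 at 117 to 120 CPM and 114 to 131 CPM. Among the low genes, Cldn7 spread most in YAP OE, at 6.23, 7.91 and 8.64 CPM against 6.74, 7.04 and 6.41 CPM in CTR OE (0.18 ± 0.10, adjusted p = 0.501, edgeR). Cldn3 (3.65 to 4.49 CPM and 3.56 to 4.44 CPM) and Ocln (5.37 to 6.16 CPM and 5.81 to 6.23 CPM) also overlapped.

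**Figure D3:**
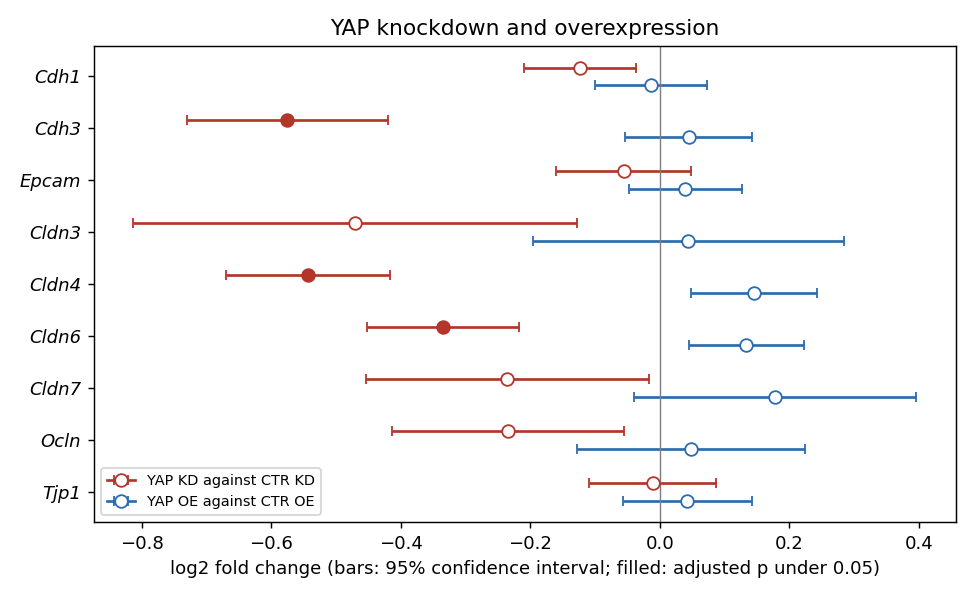
Log2 fold change of each junction gene in YAP KD against CTR KD (red) and YAP OE against CTR OE (blue), with 95% confidence intervals from edgeR, 3 libraries per group. Filled points (Cdh3, Cldn4 and Cldn6 in the knockdown, at -0.58, -0.54 and -0.34) passed an adjusted p of 0.05, and no gene did in the overexpression.

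Both experiments were then joined in a fit over all 12 libraries, as the YAP effect in overexpression minus that in knockdown. Since YAP was lowered in one and raised in the other, a gene that follows YAP alike in both also gives a positive value, as Yap1 itself did (2.11 ± 0.08), so a call does not show an unequal response. The difference was positive for all 9 genes and called for 3, the same Cdh3, Cldn4 and Cldn6, where 8.80% of 15049 genes were called. It was 0.62 ± 0.09 for Cdh3 (adjusted p = 0.000404), 0.69 ± 0.08 for Cldn4 (adjusted p = 5.95e-05) and 0.47 ± 0.07 for Cldn6 (adjusted p = 0.000351, edgeR). For the other 6 the adjusted p lay between 0.121 and 0.699. A fall on knockdown with a rise on overexpression, both called, occurred in 80 of 14521 genes (0.551%), none of them a junction gene. Signs alone, negative in YAP KD and positive in YAP OE, were found for 8 of the 9 genes and for 28.8% of all genes.

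The sum of the YAP effects asked whether the fall on knockdown was matched by an equal rise on overexpression. This comparison was added after the values had been seen, and 1.22% of 15049 genes were called in it. The sum was -0.53 ± 0.09 for Cdh3 (adjusted p = 0.00621) and -0.40 ± 0.08 for Cldn4 (adjusted p = 0.0158, edgeR), so the fall was larger than the rise for these genes. For Cldn6 it was -0.20 ± 0.07 and did not pass the threshold (adjusted p = 0.187, edgeR). Cldn4 lost its call when YAP KD replicate 3, CTR OE replicate 3 or YAP OE replicate 2 was left out, with an adjusted p of 0.0516, 0.0549 and 0.0502. Yap1 itself changed by -1.14 ± 0.06 on knockdown and 0.97 ± 0.05 on overexpression, with a sum of -0.18 ± 0.08 (unadjusted p under 0.05, adjusted p = 0.380, edgeR). What part this sum of Yap1 had in those of Cdh3 and Cldn4 was not tested.

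The control groups received siRNAs in one experiment and a plasmid in the other and were not compared by a test. Cldn6 was at 38.2 to 41.7 CPM in CTR KD and 43.8 to 46.6 CPM in CTR OE, and Cldn7 at 5.14 to 6.19 CPM and 6.41 to 7.04 CPM, both without overlap. In contrast, Cldn4 was at 113 to 128 CPM in CTR KD and 104 to 110 CPM in CTR OE. The experiment and the transfected material cannot be told apart in these differences.

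The junction genes were then set against each other across libraries, with log2 CPM centred within each experiment. Pearson's r over the 12 libraries was 0.944 for Cdh3 and Cldn4, 0.930 for Cldn4 and Cldn6, 0.873 for Cdh3 and Cldn6 and 0.858 for Cdh1 and Cdh3. Tjp1 stood apart, with r between 0.072 and 0.437 to the other members. These values describe libraries that share the YAP contrast and are not tests.

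Genes whose pattern was most alike were sought in the same way among 12395 genes with a mean of at least 50 counts. For Cdh3 they were Ajuba (r = 0.984), a LIM protein found at cadherin junctions, Lrig3 (0.974) and 1500009L16Rik (0.965). For Cldn4 they were Idh2 (0.987), a mitochondrial isocitrate dehydrogenase, Bcam (0.982), a laminin-binding cell adhesion molecule, and Slc28a1 (0.971). Cldn6 was closest to Cpt1c (0.977), Syde1 (0.973) and Cd55 (0.963), the last a regulator of complement on the cell surface. The nearest genes of the others were Mrpl12 for Cdh1 (0.951), Dnajc3 for Ocln (0.950), Tmem30b for Cldn3 (0.941), Cry1 for Epcam (0.918), Klhdc2 for Cldn7 (0.911) and Bach2 for Tjp1 (0.909).

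Partner genes were read from lists of the same pathway. Of 11 adherens junction partners (catenins, nectins and their linkers), edgeR, DESeq2 and limma-voom called none in either experiment, with 3 at an unadjusted p under 0.05 in the knockdown and 0 on overexpression. The median log2 fold change of this list was -0.017 in YAP KD and 0.001 in YAP OE. Ctnnb1, encoding beta-catenin, was at 1060 to 1090 CPM in CTR KD and 1030 to 1080 CPM in YAP KD. Ctnna1, encoding the alpha-catenin that links cadherins to actin, was at 520 to 524 CPM and 477 to 498 CPM without overlap, a change of -0.10 ± 0.04 that did not pass the threshold (adjusted p = 0.176, edgeR).

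Among 13 tight junction partners, 1 rose and none fell in YAP KD. Cgnl1, encoding paracingulin, a cytoplasmic adaptor shared by adherens and tight junctions, rose from 36.6 to 39.0 CPM in CTR KD to 58.6 to 59.9 CPM in YAP KD (0.64 ± 0.04, adjusted p = 0.00011, edgeR). In the overexpression it was at 39.7 to 44.1 CPM in CTR OE and 33.4 to 38.8 CPM in YAP OE (-0.23 ± 0.06, adjusted p = 0.0542, edgeR). None of the 13 was called in YAP OE by edgeR or limma-voom, 1 was by DESeq2, and 3 had an unadjusted p under 0.05.

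Of 11 genes of the apical polarity complexes, 2 fell and 1 rose in YAP KD, and 1 rose in YAP OE. Inadl, encoding the Patj scaffold of the Crumbs complex, was the only gene of the junctional lists called in both experiments. It was at 19.6 to 22.5 CPM in CTR KD and 12.3 to 12.9 CPM in YAP KD (-0.76 ± 0.06, adjusted p = 0.000221, edgeR). In the overexpression it rose from 22.2 to 23.3 CPM in CTR OE to 26.8 to 28.5 CPM in YAP OE (0.27 ± 0.05, adjusted p = 0.00544, edgeR). Crb3, the epithelial Crumbs protein that this complex is built on, fell in YAP KD (13.0 to 14.9 CPM against 10 to 10.2 CPM, -0.44 ± 0.07, adjusted p = 0.00681, edgeR). Prkci, encoding the atypical protein kinase C of the Par complex, moved the other way (187 to 197 CPM in CTR KD and 241 to 248 CPM in YAP KD, 0.36 ± 0.04, adjusted p = 0.00122, edgeR).

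Desmosomes are the spot junctions anchored to keratin. Of 8 desmosome genes, 7 were tested, and Dsg2, a desmosomal cadherin, fell in YAP KD (24.0 to 26.0 CPM against 18.1 to 19.6 CPM, -0.43 ± 0.05, adjusted p = 0.00241, edgeR). Pkp2, a plakophilin of the desmosomal plaque, rose in YAP OE (29.4 to 30.3 CPM against 33.0 to 35.3 CPM, 0.20 ± 0.04, adjusted p = 0.025, edgeR). Of 3 Epcam-related genes, Spint2, which encodes an inhibitor of the serine proteases that can cleave Epcam, fell in YAP KD (59.9 to 73.6 CPM against 48.4 to 54.9 CPM, -0.38 ± 0.07, adjusted p = 0.0186, edgeR).

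**Figure D4:**
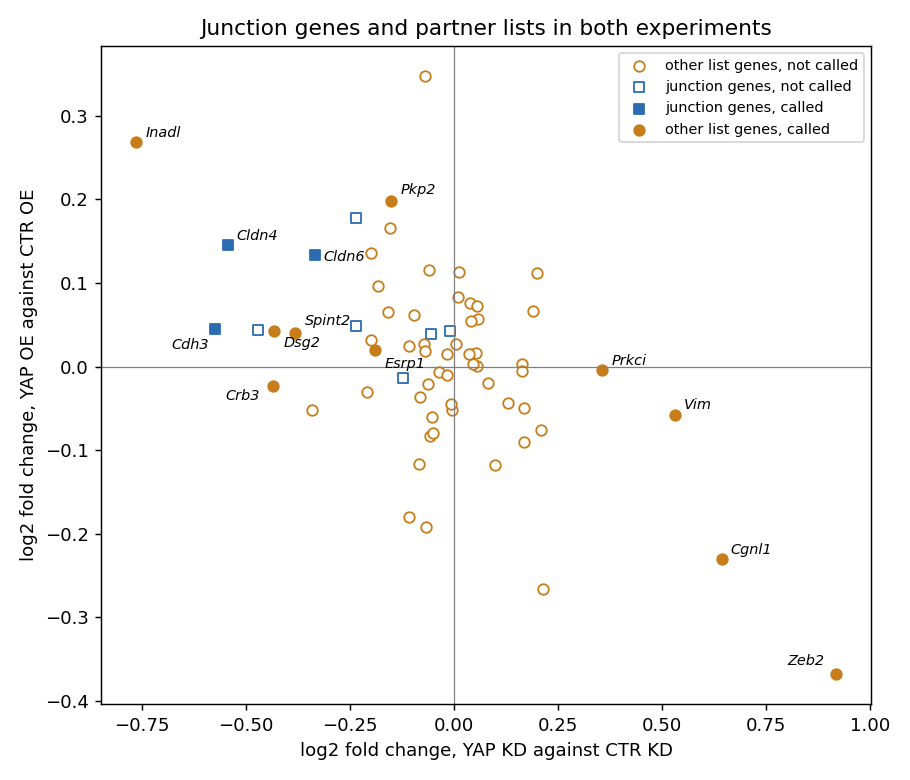
Log2 fold change in YAP KD against CTR KD (horizontal) and in YAP OE against CTR OE (vertical) of 68 genes of the junctional, regulator and mesenchymal lists with a mean of at least 50 counts, junction genes as squares and filled where called in either experiment. Inadl, Cldn4 and Cldn6 sit at the upper left (-0.76, -0.54 and -0.34 on the horizontal axis) and Zeb2 and Cgnl1 at the lower right (0.92 and 0.64).

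Transcriptional regulators of the epithelial state were also measured. Of 6 epithelial regulators, edgeR called Esrp1, an epithelial splicing factor, which fell in YAP KD (35.3 to 36.3 CPM against 30.5 to 31.9 CPM, -0.19 ± 0.04, adjusted p = 0.0316, edgeR). DESeq2 called none of the 6. Grhl2, a transcription factor known to activate Cdh1 and claudin genes, was at 52.1 to 55.6 CPM in CTR KD and 50.3 to 51.4 CPM in YAP KD, a change that did not pass the threshold (-0.08 ± 0.04, adjusted p = 0.327, edgeR).

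Of 6 repressors of cadherin genes, 4 were tested and 1 rose in YAP KD. Zeb2, known to repress Cdh1 and other junction genes, was at 3.17 to 4.09 CPM in CTR KD and 6.36 to 7.96 CPM in YAP KD (0.92 ± 0.12, adjusted p = 0.00303, edgeR). In the overexpression it was at 4.03 to 4.17 CPM in CTR OE and 2.98 to 3.41 CPM in YAP OE, which did not overlap but did not pass the threshold (-0.37 ± 0.10, adjusted p = 0.0685, edgeR). Of 5 mesenchymal genes, Vim, encoding the intermediate filament vimentin, rose in YAP KD (50.1 to 53.4 CPM against 72.3 to 77.9 CPM, 0.53 ± 0.04, adjusted p = 0.000227, edgeR). Fn1, encoding the matrix protein fibronectin and the most abundant of the 5, overlapped between groups (500 to 621 CPM against 503 to 563 CPM, -0.07 ± 0.07, adjusted p = 0.691, edgeR).

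Markers of other cells that may arise in ESC cultures were read beside these genes, and some trophoblast and primitive endoderm markers were called. The summed level of 9 trophoblast markers, several of them expressed in epithelium in general, was 118 to 131 CPM in CTR KD, 157 to 166 CPM in YAP KD, 153 to 166 CPM in CTR OE and 174 to 208 CPM in YAP OE. Of these, Krt8 and Tfap2c rose in YAP KD (5 tested) and Cdx2, Gata3, Krt8 and Krt18 in YAP OE (8 tested). Of the 5 tested in the knockdown, 4 had an unadjusted p under 0.05 (edgeR). On overexpression all 8 tested had, 7 with a positive log2 fold change and Tfap2c with a negative one (-0.16 ± 0.05). Cdx2 and Hand1 averaged 7.67 and 8.33 counts in CTR OE and 31.7 and 18.7 in YAP OE. Neither was tested in the knockdown. Both passed the filter on low counts only through YAP OE, where they were higher. The 8 tested were thus not chosen independently of the response, and the Cdx2 call carries this limit. Cdx2, Gata3 and Hand1 averaged under 50 counts and are named here after their values were seen. Cdx2 was at 0.102 to 0.227 CPM in CTR OE and 0.606 to 0.64 CPM in YAP OE (2.05 ± 0.30, adjusted p = 0.00159, edgeR). Gata3 was at 0.225 to 0.398 CPM and 0.89 to 1.21 CPM (1.84 ± 0.25, adjusted p = 0.000886, edgeR). The 7 primitive endoderm markers summed to 6.22 to 8.76 CPM over all 12 libraries, and Dab2 rose in YAP OE (0.63 ± 0.11, adjusted p = 0.00645, edgeR). The 6 fibroblast markers summed to 1.87 to 3.13 CPM, and none was called by edgeR, DESeq2 or limma-voom in either experiment, with 2 at an unadjusted p under 0.05 in the knockdown and 0 on overexpression. No marker of these lists was at 0 in all libraries of a group. The part of such cells in the levels of the junction genes was not tested.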

How the data were processed

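Total RNA of 12 ESC libraries was sequenced. The authors aligned reads with STAR to mm10 and assigned them to curated RefSeq genes with RSEM (versions and strand setting not given in the sources used here). Each deposited table gives expected counts per gene (estimated, not normalized), TPM, FPKM and transcript lengths. The deposited FPKM values were not used, and the deposited TPM values entered only alternative fits.

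Expected counts were rounded to whole numbers and fitted with edgeR 4.0.16 in R 4.3.3, after filterByExpr and TMM scaling. YAP was compared with CTR within each experiment (6 libraries), and the difference and sum of effects over 12 libraries. The SE is the absolute log2 fold change divided by the square root of F. The expected counts of the 9 genes were whole numbers in every library (tolerance 0.005), so no reads were split with other genes. Replicates of each group differed by more than counting noise (chi-square per degree of freedom 3.98 to 30.6) and were counted separately. The code was tested on simulated data. Alternatives included DESeq2 1.42.0 and limma 3.58.1, other scalings and filters, and each library left out.

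The members, lists and tests were chosen with earlier results of these data known. Named partner genes were those called in either experiment that averaged 50 or more expected counts, plus up to 3 of the highest-level uncalled genes per list, with 1 such gene not reported here. For each member, the 3 genes most alike by correlation were sought.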

Additional observations from a re-analysis of the deposited data

Results flagged for a closer look

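For 3 junction genes, the difference between the YAP effects in the overexpression and the knockdown experiment passed its test (edgeR, 12 libraries). YAP was moved in opposite directions, so this does not show that the response was unequal. The sum of effects, which bears on that, was called for Cdh3 and Cldn4 and not for Cldn6 (-0.20, adjusted p = 0.187). The effect in overexpression minus that in knockdown was 0.622 for Cdh3, 0.6907 for Cldn4 and 0.47 for Cldn6 on the log2 scale. The change in the knockdown made up most of each difference (-0.58, -0.54 and -0.34), beside 0.04, 0.15 and 0.13 in the overexpression, where none of the 3 was called.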

How the results depend on the processing

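The libraries of each group number 3, and depth limits Cldn3, Cldn7 and Ocln most, with means of 127 to 384 counts per group. Cldn4 stayed called in the knockdown under all 12 alternatives and with each library left out (adjusted p at most 0.0269). Cdh3 and Cldn6 lost their call only on the TPM scales, where their knockdown values were -0.57 and -0.34 (adjusted p = 0.0808 and 0.433, limma) on log2(TPM + 0.1) and -0.48 and -0.32 (adjusted p = 0.0889 and 0.407, limma) on log2(TPM + 1). There, the number of junction genes called in the knockdown was 1 and 1, in the difference of effects 1 and 1, and in the sum 0 and 0. TPM relative to CPM per kb, read from Cdh1, ranged from 0.446 to 0.583 among YAP KD libraries and from 0.494 to 0.531 among CTR KD libraries. With libraries left out in turn, these numbers were 3 to 4 in the knockdown, 3 to 4 in the difference and 1 to 2 in the sum. No junction gene was called in the overexpression under any of the 12 alternatives or with any library left out.

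Counts over all genes moved more. On log2(TPM + 0.1) and log2(TPM + 1) they were 47 and 74 in the knockdown, 68 and 87 on overexpression (64 and 81 of these higher), 123 and 139 in the difference and 4 and 7 in the sum. A fit of all 12 libraries called 1261 genes in the knockdown, and Cdh1 among them (-0.13, adjusted p = 0.0497). Without a filter, 556 were called in the overexpression (379 higher). Leaving out 1 library gave 298 to 1019 in the knockdown (298 without CTR KD replicate 3, and 360, 306 and 369 without YAP KD replicate 1, 2 and 3), 154 to 327 in the overexpression (168, 181 and 154 without CTR OE replicate 1, 2 and 3), 943 to 1490 in the difference and 123 to 212 in the sum. Cldn7 was called in the difference without YAP OE replicate 1 (0.54, adjusted p = 0.0195), and Cldn3 without CTR KD replicate 1 (0.67, adjusted p = 0.0224).

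Replicate numbers are shared by all groups, but same-numbered libraries did not deviate together (r of -0.383, -0.282 and -0.003 on knockdown and 0.064, 0.074 and -0.040 on overexpression). With the replicate number as a block, 193 genes were called in the knockdown, 280 in the overexpression, 784 in the difference and 83 in the sum, and the junction genes called were 3, 0, 3 and 2.

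The values that changed sign were small. With libraries left out, Tjp1 in the knockdown ranged from -0.0548 to 0.0158, above 0 without CTR KD replicate 2 (2e-04) or replicate 3. On overexpression, Cdh1 ranged from -0.0304 to 0.0114 (above 0 without YAP OE replicate 3, and 0.0101 and 0.0102 on the TPM scales), Cldn3 from -0.0234 (without YAP OE replicate 3, and -0.0195 without CTR OE replicate 1) to 0.1398, Ocln from -0.0019 (without CTR OE replicate 1) to 0.0944 and Tjp1 from -0.012 (without YAP OE replicate 2) to 0.0835. Tjp1 ranged from -0.0019 (without YAP OE replicate 2) to 0.1 in the difference and from -0.0243 (again without it) to 0.0676 in the sum, where it was -0.0111 without CTR KD replicate 1. In the sum, Epcam ranged from -0.0591 to 0.0097 and Cldn7 from -0.1784 to 0.0639. Causes were not tested. Calls of Cdh1, Cdh3, Cldn3, Cldn4, Cldn6 and Cldn7 crossed the threshold in some setting, and those of Epcam, Ocln and Tjp1 in none. On the TPM scales the calls lost included Cdh3 and Cldn6 in the difference, and Cdh3 and Cldn4 in the sum.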
